A study of Homo sapiens with 12 samples.

Results

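The genes described here encode histone variants that lie outside the large histone gene clusters. They were chosen as 9 rows of the expression table by gene symbol, of 58233 rows in all, and the 8 described here are H2AFZ, H2AFV, H2AFX, H2AFY, H2AFJ, H3F3A, H3F3B and H1FX, each found once. RNA was measured in HL-60 cells, an established human acute myeloid leukaemia line listed as wild type and grown in RPMI with fetal calf serum. The 4 groups of 3 libraries were untreated cells, cells given 100 nM ATRA (all-trans retinoic acid, a ligand of the retinoic acid receptors), cells given 500 nM palbociclib (which blocks the cell cycle kinases CDK4 and CDK6), and cells given both agents at these doses (ATRA+palbociclib), all after 3 h. The line is 1 cell line. The study's methods call the libraries barcoded triplicates and state in general that its data come from independent experiments, but neither they nor the labels say this of these libraries, so the p-values measure the spread between libraries, which may be technical. Values are RPKM, that is reads per length of gene and per size of library, and the deposited table gives them as whole numbers.

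A nucleosome holds DNA around a core of the histones H2A, H2B, H3 and H4, with a linker histone H1 where the DNA enters and leaves. The clustered histone genes are transcribed mostly in S phase and most of their mRNAs end in a stem-loop without a poly(A) tail. Most variant genes outside the clusters give polyadenylated mRNA through the whole cell cycle, and their proteins are placed into chromatin by dedicated chaperones and remodellers. H2AFX is known to give both a stem-loop form and a polyadenylated form, and libraries selected on poly(A), as here, read the polyadenylated form.

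The myeloid identity of the cells was checked on markers. MPO was at 1077 to 1579 RPKM and PRTN3 at 195 to 310 RPKM in the 12 libraries, AZU1, CTSG, CD33 and MYC were above 0 in all, and ELANE was at 0 or 1. The T cell, erythroid and fibroblast markers were listed at 0 in all libraries. Of the B cell markers, CD79A was at 1 in the libraries that received ATRA and at 0 in the others. The 3 treated libraries with replicate number 1 stood apart from the other 6 treated libraries in several genes described here, most visibly in H1FX, and results that rest on them are given with and without them. The summed level of the 7 myeloid markers was 1656 to 1913 RPKM in untreated libraries, 1430 to 1651 with ATRA, 1816 to 2071 with palbociclib and 1445 to 1731 with both, and its part in the results was not tested. The study's supplement states an average read number for its samples, but the depth of each library is not given in the sources used here, and rounded RPKM values keep no read counts.

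Of the 8 genes, 7 reached 5 RPKM or more in 3 or more libraries and were tested, and H2AFJ was listed at 0 in all 12 libraries. Averaged over the 12 libraries, the level per length was 310 RPKM for H2AFZ, 101 for H3F3A, 87.0 for H3F3B, 66.6 for H2AFX, 39.3 for H2AFV, 23.1 for H1FX and 11.4 for H2AFY. This order was the same in 12 of 12 libraries. Over all libraries the ranges of neighbours overlapped between H3F3A (95 to 108 RPKM) and H3F3B (79 to 96 RPKM), and between H3F3B and H2AFX (50 to 85 RPKM). The other neighbours did not overlap, with H2AFZ at 251 to 352, H2AFV at 35 to 44, H1FX at 19 to 29 and H2AFY at 11 or 12 RPKM. The sum over the genes was 690 ± 15.7 RPKM in untreated cells, 640 ± 59.9 with ATRA, 619 ± 47.1 with palbociclib and 606 ± 66.5 with both (SD, n = 3).

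The genes are spread over 8 chromosomes. On GRCh38, with GENCODE v44 gene models, the intronless H2AFX lies at chr11:119093874-119095465 on the minus strand. H2AFZ, with 5 exons, lies at chr4:99948086-99950355, and H2AFV, also with 5 exons, at chr7:44826791-44848087, both on the minus strand. H3F3A (4 exons) lies at chr1:226061851-226072019 on the plus strand and H3F3B (4 exons) at chr17:75776434-75785893 on the minus strand. H2AFY has 9 exons at chr5:135334381-135399914, while H1FX (chr3:129314771-129316286) and H2AFJ (chr12:14774405-14778002) each have 1 exon in their canonical transcript. The newer symbols of these genes are H2AX, H2AZ1, H2AZ2, H3-3A, H3-3B, MACROH2A1, H1-10 and H2AJ, in the order in which they are named in this paragraph.

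The sequence just upstream of H2AFX is shown because H2AFX was the member whose level differed most with treatment, and the same region of H2AFZ and H2AFV is shown for contrast. The sequences are from RefSeq (GRCh38.p14), 5′ to 3′ on the gene's strand, at chr11:119095466-119095715 (250 bases), chr4:99950356-99950525 (170 bases) and chr7:44848088-44848337 (250 bases), all on the minus strand. Each ends directly before the first base of the longest gene model. Capitals mark CCAAT and TTTGAA on either strand, so that the reverse strand reads ATTGG and TTCAAA.
H2AFX: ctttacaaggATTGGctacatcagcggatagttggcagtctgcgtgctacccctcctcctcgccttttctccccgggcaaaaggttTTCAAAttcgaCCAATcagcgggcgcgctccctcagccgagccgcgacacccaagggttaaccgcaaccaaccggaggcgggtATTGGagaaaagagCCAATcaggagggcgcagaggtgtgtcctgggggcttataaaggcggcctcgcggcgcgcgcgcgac
H2AFZ: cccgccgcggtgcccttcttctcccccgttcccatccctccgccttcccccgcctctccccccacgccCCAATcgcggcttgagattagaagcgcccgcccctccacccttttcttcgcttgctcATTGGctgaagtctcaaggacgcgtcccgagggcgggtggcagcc
H2AFV: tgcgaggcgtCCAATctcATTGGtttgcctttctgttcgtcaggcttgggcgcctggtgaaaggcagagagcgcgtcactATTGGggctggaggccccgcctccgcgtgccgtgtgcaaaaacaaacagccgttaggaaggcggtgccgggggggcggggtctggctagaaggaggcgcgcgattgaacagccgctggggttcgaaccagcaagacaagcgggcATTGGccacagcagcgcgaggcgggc
CCAAT is the binding sequence of the factor NF-Y, and TTTGAA is the core of the cell cycle homology region element found in many genes of the G2 and M phases. Promoter windows of 250 bases before to 50 after a start site were found for the 8 genes, 12 windows in all. The H2AFX window held CCAAT 4 times, as did those of H2AFV and H3F3B, while H2AFZ and H2AFJ held it 3 times, the third of H2AFZ inside its longest gene model and not shown. Of all 35116 windows in the table, 34.6% held CCAAT at least once, 3.26% at least 3 times and 0.991% at least 4 times. TTTGAA occurred in H2AFX, at base −164 from the start site on the reverse strand, in H2AFZ, at base 5 after it, and in 15.2% of all windows. The E2F-type sequences TTTCCCGC and TTTGGCGC (in 1.63% and 0.652% of all windows) had no match in any of the 12 windows, and GGCGGGAA (3.16%) had 1 match, in H3F3A. A direct repeat of AGGTCA with a spacer of 5 bases, as retinoic acid receptors bind it, had none. This exact repeat occurred in 2 of all 35116 windows (0.0057%), so its absence from 12 windows is uninformative. Both strands were searched, TTTCCCGC and GGCGGGAA overlap in the letters they share on opposite strands, and a match is a description of the letters, not of binding.

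H2A.X differs from bulk H2A by a tail whose serine is phosphorylated by ATM, ATR and DNA-PK at DNA double-strand breaks. H2AFX stood at 74, 85 and 79 RPKM in untreated cells, 76, 72 and 66 with ATRA, 66, 60 and 54 with palbociclib, and 61, 56 and 50 with both (replicates 1, 2 and 3). The means were 79.3 ± 5.51, 71.3 ± 5.03, 60.0 ± 6.00 and 55.7 ± 5.51 RPKM (SD, n = 3). All libraries with palbociclib, alone or with ATRA, lay below all untreated libraries, while the ATRA and untreated libraries overlapped. With palbociclib H2AFX fell by 24.5% (log2 difference −0.40, standard error 0.096, 95% interval −0.62 to −0.19, limma adjusted p = 0.0426). With both agents it fell by 29.9% (log2 difference −0.51, 95% interval −0.72 to −0.30, adjusted p = 0.00232). In bulk RNA, fewer cells that express a gene and less RNA per cell cannot be told apart. Both differences passed the looser threshold of 0.05 on the adjusted p-value and neither passed 0.001. With ATRA alone the log2 difference was −0.15 (95% interval −0.36 to 0.06, adjusted p = 0.303), which does not show that H2AFX was unaffected by ATRA. No departure from additivity was found (log2 difference 0.05, 95% interval −0.25 to 0.34, adjusted p = 1).

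**Figure D1:**
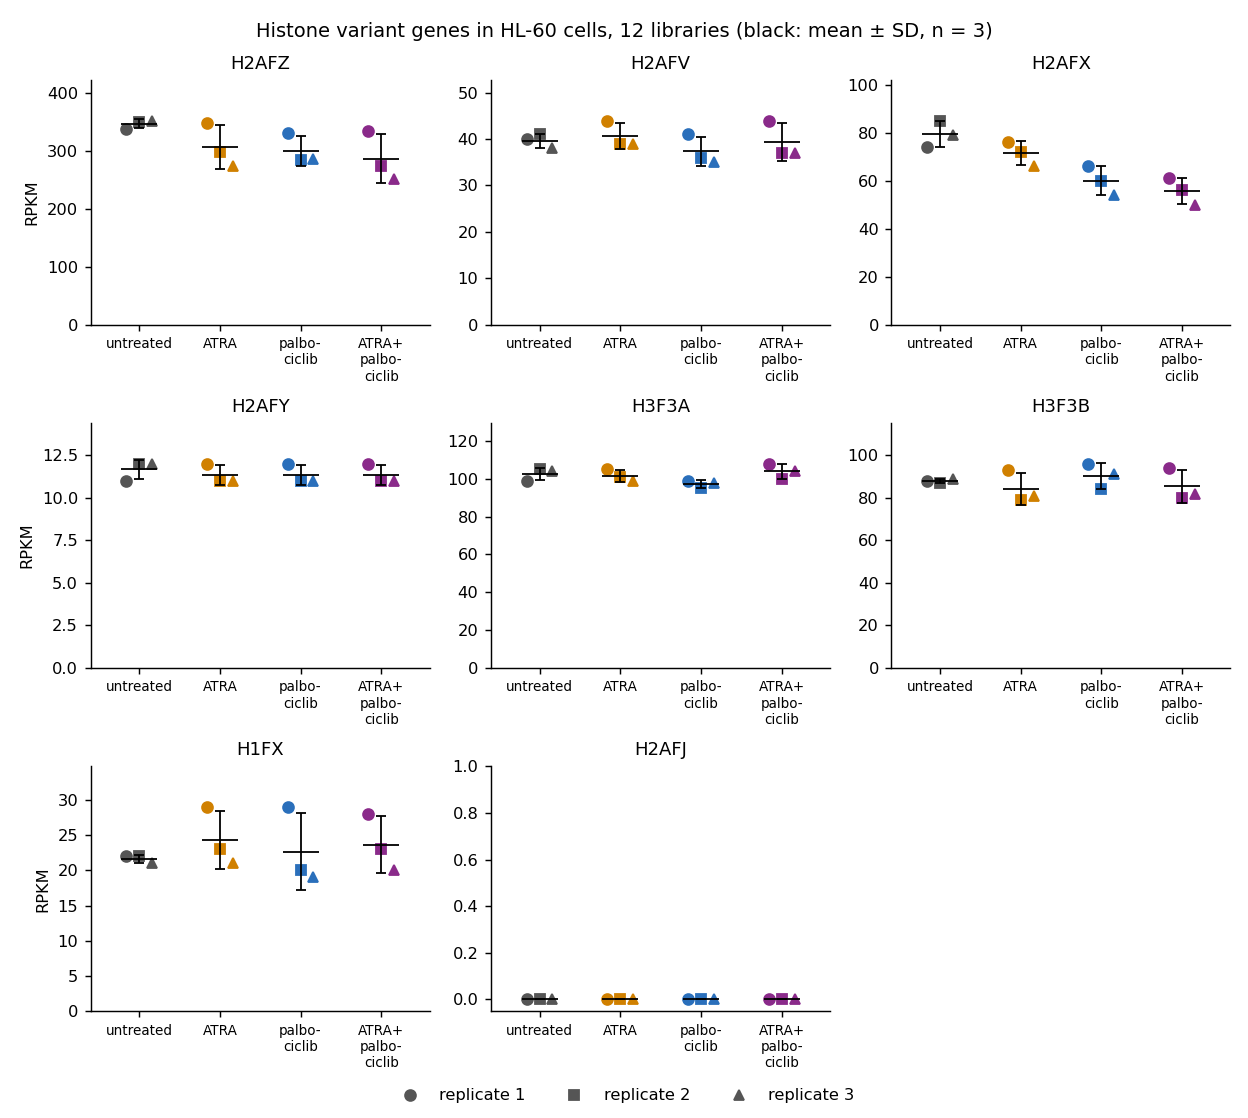
RPKM (vertical axes, each with its own scale) of the 8 genes in the 4 groups (horizontal axes). Markers are libraries, their shape the replicate number, and black bars the mean ± SD of 3 libraries. H2AFX is at 50 to 66 RPKM in the 6 libraries with palbociclib and at 66 to 85 RPKM in the 6 without it, and H2AFJ is at 0 throughout.

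The palbociclib result was near its threshold. It stayed below 0.05 in 7 of 21 other fits, where the adjusted p ranged from 0.00962 to 0.208, and it exceeded 0.05 when any 1 of 9 of the 12 libraries was left out, with the highest value, 0.138, without untreated replicate 2. The libraries whose omission kept it were palbociclib replicate 1 and ATRA+palbociclib replicates 1 and 3 (adjusted p from 0.0411 to 0.0426). The result for both agents stayed below 0.05 in 21 of 21 fits, with adjusted p from 0.000419 to 0.0244. Without the 3 treated libraries numbered 1 the log2 differences were −0.48 (adjusted p = 0.0298) and −0.58 (adjusted p = 0.00333). In a fit blocked on replicate number, H2AFX passed 0.001 with both agents (adjusted p = 0.000621), as 8.82% of all tested genes did in the same direction. That block joins untreated and treated libraries by number, although same-numbered untreated and ATRA+palbociclib libraries deviated together only weakly (r from 0.0453 to 0.305 across genes).

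What palbociclib added to ATRA, and ATRA to palbociclib, was read from libraries of the same replicate number, because same-numbered treated libraries deviated together. ATRA+palbociclib minus ATRA was −15, −16 and −16 RPKM for H2AFX in replicates 1, 2 and 3. ATRA+palbociclib minus palbociclib was −5, −4 and −4 RPKM. Both differences had the same sign in all 3 pairs, and the first was about as large in each pair. The fit across all 12 libraries gave a log2 difference of −0.36 for the first (95% interval −0.57 to −0.15, limma adjusted p = 0.386), although the groups did not overlap. In a fit blocked on replicate number over the 9 treated libraries, the same difference had a 95% interval of −0.41 to −0.31 (adjusted p = 0.00663), and 1.83% of all tested genes were lower at an adjusted p under 0.05 in that fit. For the second, the log2 difference was −0.11 (limma adjusted p = 0.596 without the block and 0.0134 with it). In the block fit, 36.0% of all tested genes passed 0.05 for this second comparison. The block fit on the treated libraries was added after the data had been seen.

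**Figure D2:**
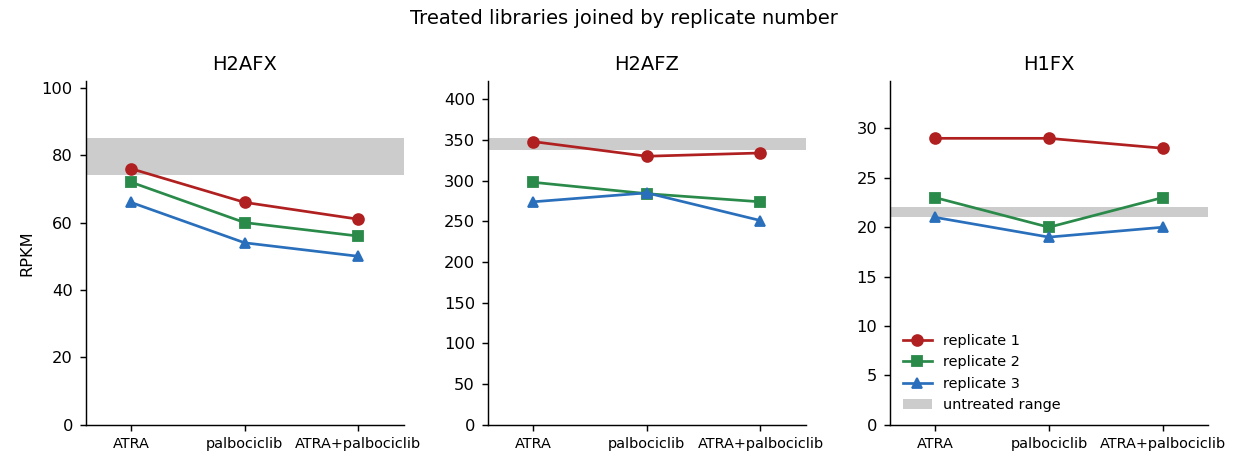
RPKM (vertical axes) of H2AFX, H2AFZ and H1FX in the 3 treated groups (horizontal axes), with libraries of the same replicate number joined and the range of the untreated libraries in grey. In H2AFX the 3 lines run nearly parallel downwards from ATRA to ATRA+palbociclib, and in H1FX the line of replicate 1, at 28 to 29 RPKM, lies above the other 2, at 19 to 23 RPKM.

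By the rule for genes of like pattern, the 3 non-member genes whose log2 values followed H2AFX most closely over the 12 libraries were MCM6 (Pearson r = 0.954), UNG (r = 0.954) and GMNN (r = 0.953), of 4662 genes with a mean of at least 10 RPKM. MCM6 is a subunit of the replicative DNA helicase, UNG removes uracil from DNA, and GMNN (geminin) restrains the licensing of replication origins. MCM6 averaged 96.7 ± 1.15 RPKM in untreated cells, 74.3 ± 3.51 with ATRA, 59.7 ± 5.03 with palbociclib and 55.0 ± 8.54 with both (SD, n = 3). UNG averaged 44.3 ± 2.08, 29.0 ± 3.46, 20.3 ± 4.51 and 17.7 ± 4.04 RPKM, and GMNN 38.7 ± 2.31, 30.7 ± 2.52, 21.3 ± 3.06 and 22.7 ± 3.21 RPKM, in the same order of groups. The points of these correlations share libraries and their scaling, the genes were picked for the likeness, and no p-value is given.

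**Figure D3:**
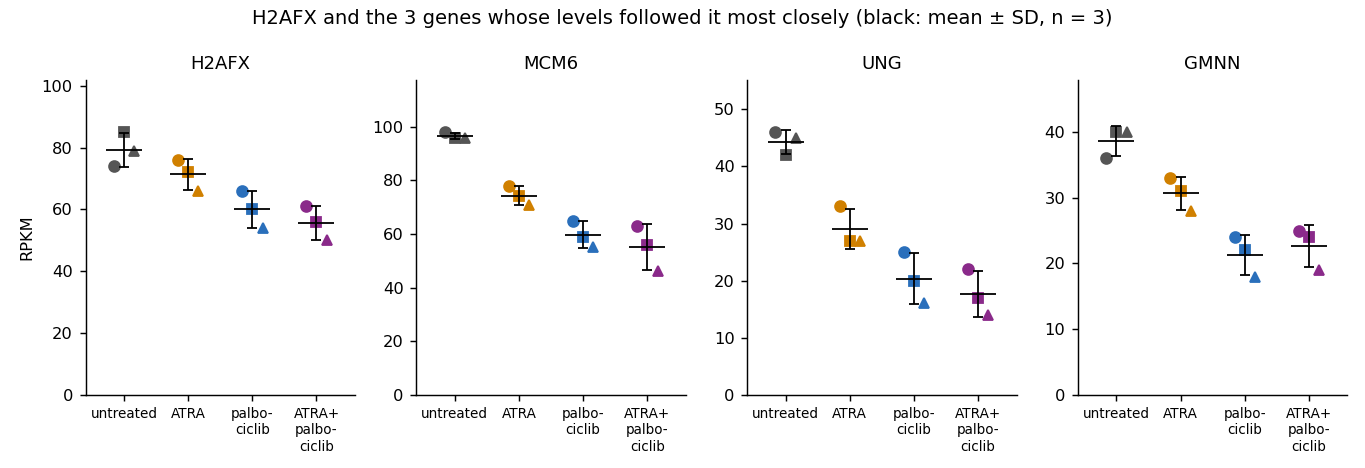
RPKM (vertical axes, each from 0) of H2AFX, MCM6, UNG and GMNN in the 4 groups (horizontal axes). Markers are libraries with the replicate number as shape (circle 1, square 2, triangle 3), and black bars the mean ± SD of 3 libraries. In each panel the untreated libraries are highest on average and the libraries with palbociclib lowest, and UNG drops furthest in proportion, from 44.3 to 17.7 RPKM on average.

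H2AFZ and H2AFV encode H2A.Z.1 and H2A.Z.2, forms of the variant H2A.Z that flanks the transcription start sites of active and poised genes. Translated from the GENCODE transcripts, the proteins have 128 residues each and differ at 3 of them. H2AFZ was the most abundant of the 8 genes, at 338, 350 and 352 RPKM in untreated cells, 348, 298 and 274 with ATRA, 330, 284 and 285 with palbociclib, and 334, 274 and 251 with both. The means were 347 ± 7.57, 307 ± 37.8, 300 ± 26.3 and 286 ± 42.9 RPKM (SD, n = 3). The libraries with palbociclib lay below the untreated ones, the treated library numbered 1 was the highest of each treated group, and the treated groups varied more than the untreated one.

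The log2 difference of H2AFZ from untreated cells was −0.18 with ATRA (adjusted p = 0.299), −0.21 with palbociclib (adjusted p = 0.379) and −0.29 with both (95% interval −0.54 to −0.03, limma adjusted p = 0.0834). None passed 0.05 in the fit given as the result. All 3 values rest on the libraries and the scaling. Without the 3 treated libraries numbered 1 the difference was −0.28 with ATRA (adjusted p = 0.0098) and −0.28 with palbociclib (adjusted p = 0.0291). After quantile normalization these differences were −0.25 (adjusted p = 0.00531) and −0.26 (adjusted p = 0.0183). With both agents, without ATRA+palbociclib replicate 1, it was −0.40 (adjusted p = 0.0166), and without the 3 treated libraries numbered 1 it was also −0.40 (adjusted p = 0.00182). After quantile normalization it was −0.36 (adjusted p = 0.000348), and in the fit blocked on replicate number the adjusted p was 0.0183. After quantile normalization H2AFZ and H2AFX were 2 of the 7 tested genes below 0.001 for both agents, and 4.59% of all tested genes were called lower there.

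H2AFV was at 40, 41 and 38 RPKM in untreated cells, 44, 39 and 39 with ATRA, 41, 36 and 35 with palbociclib, and 44, 37 and 37 with both. The groups overlapped throughout. Its log2 difference was 0.03 with ATRA, −0.09 with palbociclib and −0.02 with both, and the 95% intervals lay between −0.28 and 0.23. Without the 3 treated libraries numbered 1 these were −0.02, −0.16 and −0.10, and the palbociclib value passed 0.05 (adjusted p = 0.0492). Of the summed H2A.Z level, H2AFV made up 10.3% ± 0.459 in untreated cells, 11.8% ± 0.637 with ATRA, 11.1% ± 0.158 with palbociclib and 12.1% ± 0.636 with both (SD, n = 3). These shares were 9.74% to 10.6% in the untreated libraries and 10.9% to 12.9% in the treated ones, and the shift was not tested.

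H2AFY encodes macroH2A1, an H2A with a large extra domain (the macro domain) that is found on the inactive X chromosome and other silent chromatin. It was at 11, 12 and 12 RPKM in untreated cells and at 12, 11 and 11 RPKM in each of the 3 treated groups. At this level 1 rounding step is close to the whole spread. The log2 difference from untreated cells was −0.04 in each comparison (95% interval −0.19 to 0.11), and smaller changes could not be seen. H2AFJ, which encodes the variant H2A.J known from senescent cells, was listed at 0 in every library, so no fold is given.

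H3.3 differs from the replicative H3 proteins at a few residues and is placed into chromatin also outside S phase, at active genes, enhancers, telomeres and pericentric repeats. It is encoded by H3F3A and H3F3B, whose coding sequences of 411 bases differ at 88 bases and give the same protein of 136 residues. The table also holds rows for processed copies, which are intronless copies of an mRNA inserted elsewhere in the genome. Coding bases 46 to 120 are shown to let the rows be told apart, in lower case with capitals where a sequence differs from H3F3A. They lie, in GENCODE v44 on GRCh38, at chr1:226064397-226064471 (plus strand), chr17:75779055-75779129 (minus), chr2:174719953-174720027 (plus), chr4:139698435-139698509 (minus) and chr13:71675109-71675183 (plus), in the order of the lines.
H3F3A: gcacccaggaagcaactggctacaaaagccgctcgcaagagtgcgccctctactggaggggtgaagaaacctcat
H3F3B: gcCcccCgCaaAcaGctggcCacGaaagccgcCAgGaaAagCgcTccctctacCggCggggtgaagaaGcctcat
H3F3AP4: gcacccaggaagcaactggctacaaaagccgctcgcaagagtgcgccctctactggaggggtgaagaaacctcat
H3F3AP6: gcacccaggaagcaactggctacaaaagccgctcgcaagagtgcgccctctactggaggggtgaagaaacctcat
H3F3BP1: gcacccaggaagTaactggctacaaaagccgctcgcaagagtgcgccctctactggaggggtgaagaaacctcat
H3F3B differs from H3F3A at 16 of these 75 bases, H3F3AP4 and H3F3AP6 at 0, and H3F3BP1 at 1.

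H3F3A stood at 99, 105 and 104 RPKM in untreated cells, 105, 101 and 99 with ATRA, 99, 95 and 98 with palbociclib, and 108, 100 and 104 with both. H3F3B stood at 88, 87 and 89 RPKM in untreated cells, 93, 79 and 81 with ATRA, 96, 84 and 91 with palbociclib, and 94, 80 and 82 with both. No treated group of either gene was set apart from the untreated libraries. The log2 differences from untreated cells lay between −0.08 and 0.04 over both genes and the 3 treatments, with 95% intervals between −0.18 and 0.13 for H3F3A and between −0.24 and 0.21 for H3F3B. H3F3B, without the 3 treated libraries numbered 1, passed 0.05 as lower with ATRA (log2 difference −0.14, adjusted p = 0.0371, against −0.07 and 0.628 with them) and with both agents (−0.12, adjusted p = 0.0468, against −0.05 and 0.695). Without ATRA replicate 1 alone the ATRA value was also −0.14 (adjusted p = 0.266). H3F3A was higher in all libraries with both agents than in all with palbociclib alone, by 0.09 on the log2 scale (adjusted p = 0.284, and 0.024 with the replicate block on the 9 treated libraries). H3F3B made up 46.2% ± 0.874 of the summed H3.3 level in untreated cells, 45.3% ± 1.56 with ATRA, 48.1% ± 1.15 with palbociclib and 45.0% ± 1.32 with both (SD, n = 3), and each treated group overlapped the untreated range of 45.3% to 47.1%.

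The rows of the copies bear on how these levels are read. Over the transcripts, H3F3AP4 is 100% identical to H3F3A along its 411 bases, H3F3AP6 99.3%, and H3F3BP1, named for H3F3B, 98.5% to H3F3A against 77.6% to H3F3B. Their mean levels over the 12 libraries were 85.3, 82.3 and 33.3 RPKM, so both H3F3AP rows stood close to H3F3A itself. The counting tool in its default setting leaves out reads that map to more than 1 place, and reads of near-identical copies can be dropped or assigned to another copy, so the level of H3F3A is uncertain. H3F3AP6 and H3F3BP1 lie inside MGST2 and DACH1, on the opposite strand. H3F3C, an intronless gene 95.7% identical to H3F3B over 1121 aligned bases, averaged 14.1 RPKM. Whether the libraries kept the strand is not given in the sources used here.

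For H2A.Z, the copy H2AFZP3, 94.9% identical to H2AFZ and inside UBAC2 on the opposite strand, averaged 48.6 RPKM. It was at 57.3 ± 4.51 RPKM in untreated cells, 45.0 ± 3.46 with ATRA, 50.7 ± 7.37 with palbociclib and 41.3 ± 4.51 with both (SD, n = 3). Its log2 difference was −0.47 with both agents (95% interval −0.72 to −0.22, adjusted p = 0.00938) and −0.35 with ATRA (adjusted p = 0.0522). The first stayed under 0.05 in 21 of 21 other fits, and the second was under 0.05 in 8 of them. How far these reads belong to H2AFZ was not tested. Of 13 rows of copies and antisense transcripts, 7 were listed at 0 in all libraries and 4 passed the filter, and the antisense row that overlaps H1FX was at 0.

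**Figure D4:**
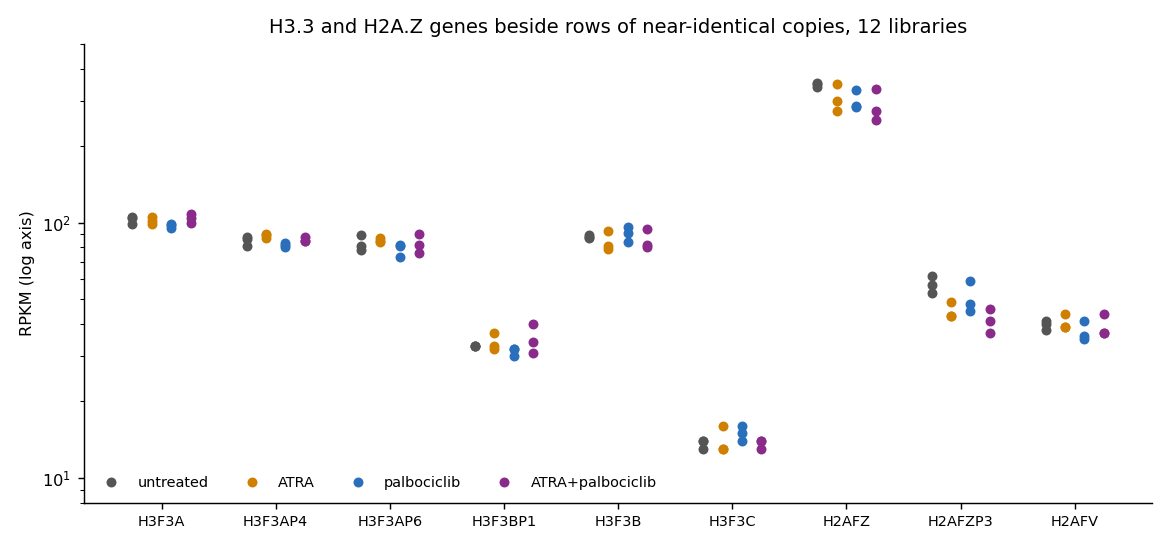
RPKM (vertical axis, logarithmic) of the H3.3 and H2A.Z genes and of rows for their near-identical copies (horizontal axis) in the 12 libraries, coloured by group. H3F3AP4 and H3F3AP6, at 73 to 90 RPKM, lie close to H3F3A, at 95 to 108 RPKM, and H2AFZP3 lies well below H2AFZ.

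H1FX encodes the linker histone H1X. H1FX was at 22, 22 and 21 RPKM in untreated cells, 29, 23 and 21 with ATRA, 29, 20 and 19 with palbociclib, and 28, 23 and 20 with both. Replicate 1 was the highest of each treated group, and the remaining treated libraries were at 19 to 23 RPKM, around the untreated ones. The log2 differences were 0.15, 0.04 and 0.11, with 95% intervals between −0.34 and 0.54, the widest of the 7 tested genes. Without the 3 treated libraries numbered 1 they were 0.02, −0.15 and −0.01 (adjusted p from 0.277 to 0.898), so the sign turned with palbociclib and with both agents.

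For ATRA against untreated cells, 0 of the 7 tested genes were called at an adjusted p under 0.001 and 0 at 0.05, where 4.72% and 20.3% of the 7820 tested genes were called. No gene of the 7 had all ATRA libraries above or all below the untreated ones, against 12.4% and 17.3% of all tested genes. For palbociclib, 0 were called at 0.001 and 1, H2AFX, at 0.05, where 0.499% and 4.07% of all tested genes were called, 3.16% of them lower at 0.05. H2AFX and H2AFZ were 2 of 7 with all palbociclib libraries below the untreated ones, against 9.48% of all tested genes. For both agents, 0 were called at 0.001 and 1, again H2AFX, at 0.05, where 8.04% and 30.4% were called and 17.7% were lower at 0.05. The same 2 genes lay wholly below the untreated libraries, against 20.6% of all tested genes. Read against these shares, 1 call among 7 genes was not more than the background for both agents. Without the 3 treated libraries numbered 1, the genes lower at 0.05 were 2 of 7 with ATRA (H2AFZ and H3F3B), 3 with palbociclib (H2AFX, H2AFZ and H2AFV) and 3 with both (H2AFX, H2AFZ and H3F3B), where 19.3%, 5.41% and 24.1% of all tested genes were lower.

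For ATRA+palbociclib against ATRA, 0 of 7 were called at either threshold, where 0% and 0.115% of all tested genes were called, and H2AFX was the 1 gene with no overlap, lower, against 2.52% of all tested genes. For ATRA+palbociclib against palbociclib, 0 of 7 were called, where 3.11% and 12.5% were called, and H3F3A was the 1 gene wholly higher, against 8.26%. In the block fit on the treated libraries 3 of the 7 passed 0.05 in that comparison, H2AFX lower and H3F3A and H2AFV higher (H2AFV by 0.07 on the log2 scale, adjusted p = 0.0439), where 36.0% of all tested genes passed. For the departure from additivity 0 of 7 and 0% of all genes were called at either threshold. At an unadjusted limma p under 0.05, 2586 of all genes passed for ATRA, 1359 for palbociclib, 3165 for both, 287 and 1858 for ATRA+palbociclib against ATRA and against palbociclib, and 236 for the departure from additivity. The median log2 difference over the 7 genes was −0.04 with ATRA, −0.08 with palbociclib and −0.04 with both, beside −0.01, 0.00 and −0.01 over all tested genes.

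**Figure D5:**
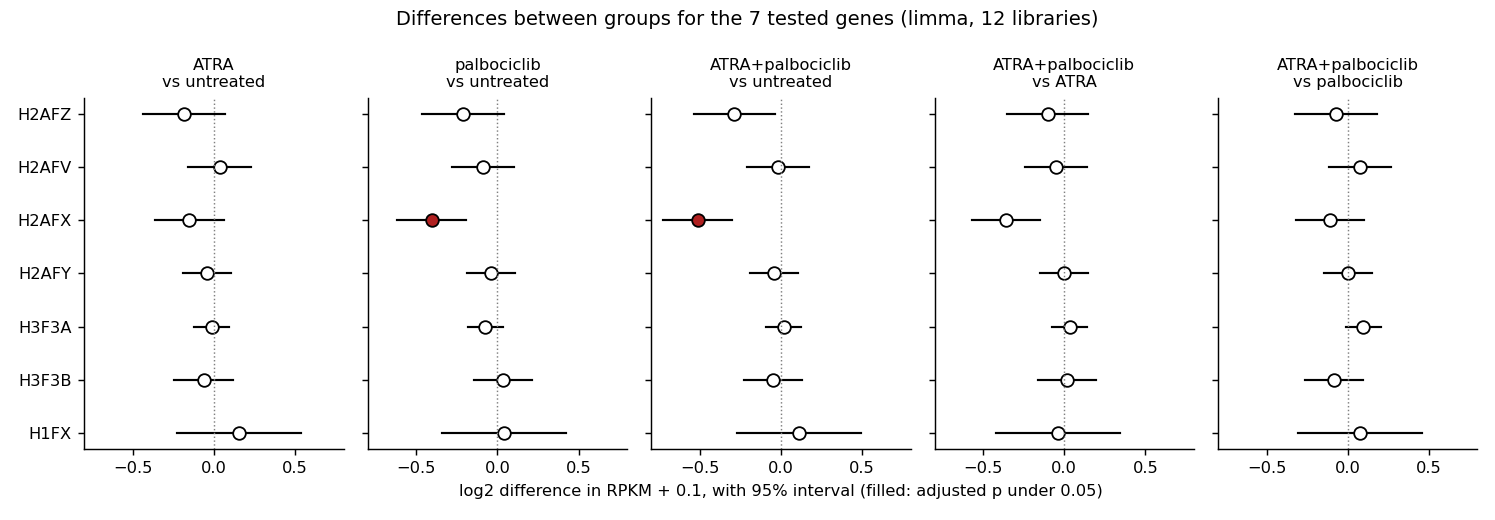
Log2 differences in RPKM + 0.1 (horizontal axes) of the 7 tested genes (rows) in 5 comparisons (panels), with 95% intervals from limma over 12 libraries; filled points have an adjusted p under 0.05. H2AFX is the 1 filled gene, at −0.40 with palbociclib and −0.51 with both agents.

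The enzymes and chaperones that place or remove these histones were described from lists, and no list was tested as a set. Their calls stand beside the shares of all tested genes called at 0.05, which were 20.3% with ATRA, 4.07% with palbociclib and 30.4% with both agents. With both agents 17.7% were lower at 0.05, and 8.04% were called at 0.001. For both agents against palbociclib the share at 0.05 was 12.5%. Of 12 genes for the deposition and removal of H2A.Z, 11 passed the filter. DMAP1, a subunit of the TIP60-p400 and SRCAP complexes, rose with both agents, from 4 RPKM in each untreated library to 6 in each library with ATRA and in each with both (log2 difference 0.57, adjusted p = 0.000738, and 0.00111 with ATRA alone). With palbociclib alone it was at 4 or 5 RPKM. At this level the change was 2 rounding steps, and the rounded values had no spread within the untreated, ATRA and ATRA+palbociclib groups. DMAP1 reached the filter of 5 RPKM in 3 libraries only through the libraries with ATRA, where it was highest. Its call as higher is therefore not independent of that filter. The adjusted p with both agents was under 0.001 in 10 of 21 other fits and under 0.05 in all 21, at 0.00013 to 0.0036, and leaving out any untreated, ATRA or ATRA+palbociclib library took it above 0.001. ANP32E, a chaperone that removes H2A.Z, had the highest level, at 251 to 317 RPKM, and RUVBL2, an ATPase of both complexes, followed at 55 to 67 RPKM, and neither was called. The other 10 tested genes were not called at 0.05 in any comparison, and the list's median log2 difference with both agents was 0.04.

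Of 8 genes for the deposition of H3.3, 6 passed the filter. DEK, a chromatin protein and H3.3 chaperone, was at 90, 93 and 83 RPKM in untreated cells, 71, 77 and 67 with ATRA, 59, 65 and 57 with palbociclib, and 65, 65 and 56 with both. It fell by 0.52 on the log2 scale with both agents (adjusted p = 0.000845), by 0.56 with palbociclib (adjusted p = 0.00402) and by 0.31 with ATRA (adjusted p = 0.0226). With both agents the adjusted p was under 0.001 in 3 of 21 other fits and under 0.05 in all 21, at 1.79e-05 to 0.0108, and leaving out any 1 library took it above 0.001 (0.00116 to 0.00544). The ATRA call was lost without untreated replicate 1 or 2 or ATRA replicate 1 or 3 (adjusted p from 0.052 to 0.0875), without the 3 treated libraries numbered 1 (0.0708) and after median centring (0.126). The library medians used for centring come from whole-number values and move in rounding steps. A call lost there may therefore reflect rounding, which was not tested. HIRA and UBN1, subunits of the HIRA chaperone complex, were lower with both agents at 0.05, HIRA at 8 RPKM in each untreated library and 6 to 7 with both (adjusted p = 0.0357), and UBN1 at 11 to 12 and 8 to 10 (adjusted p = 0.0328). These calls held in 12 and 14 of 21 other fits, with adjusted p up to 0.178 and 0.0988. At these levels the changes were a few rounding steps, and the rounded HIRA values had no spread in untreated cells. HIRA lost its call without any untreated library, ATRA replicate 3 or ATRA+palbociclib replicate 2 or 3, and UBN1 without untreated replicate 1 or 2 or ATRA+palbociclib replicate 1. With ATRA, HIRA passed 0.05 in 1 of 21 other fits, without the 3 treated libraries numbered 1 (adjusted p = 0.0145, against 0.224 with them). ASF1A, which hands H3.3 to HIRA, was at 27 to 34 RPKM and was not called. The list's median with both agents was −0.19.

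Of 10 genes for H2AX exchange, its phosphorylation and its readers, 9 passed the filter. SUPT16H and SSRP1 form FACT, a chaperone that exchanges H2A-type histones. SUPT16H was at 96, 90 and 90 RPKM in untreated cells, 77, 78 and 77 with ATRA, 73, 80 and 78 with palbociclib, and 72, 72 and 69 with both, and fell by 0.37 on the log2 scale with both agents (adjusted p = 0.000288). With both agents the adjusted p stayed under 0.05 in 21 of 21 other fits and under 0.001 in 14 of them. It rose above 0.001 without any untreated library or ATRA+palbociclib replicate 2 or 3, and was highest, at 0.0173, after median centring. SUPT16H also passed 0.05 with ATRA (adjusted p = 0.00524) and with palbociclib (adjusted p = 0.0177), but not after median centring (0.102 and 0.279), nor with palbociclib without untreated replicate 1 (0.0636) or in a fit of only the groups compared (0.0848). As for DEK, rounding of the library medians may enter the losses after median centring given here, and this was not tested. SSRP1 was at 84 to 88 RPKM in untreated cells and 75 to 78 with both (log2 difference −0.17, adjusted p = 0.017), a call lost after median centring (0.434) and without untreated replicate 2 (0.0512) or ATRA+palbociclib replicate 2 (0.0554). With ATRA, SSRP1 passed 0.05 in 5 of 21 other fits, lowest without the 3 treated libraries numbered 1 (0.0103, against 0.0873 with them). With palbociclib it passed in 1 of 21, also without these 3 libraries (0.0313, against 0.247). BAZ1B, a remodeller subunit with kinase activity on H2A.X, was at 37, 37 and 36 RPKM in untreated cells, 46, 65 and 64 with ATRA, 26, 31 and 30 with palbociclib, and 42, 61 and 57 with both. It passed 0.05 as higher with ATRA (log2 difference 0.65, adjusted p = 0.0128), with both agents (0.52, adjusted p = 0.0266) and with both against palbociclib (0.86, adjusted p = 0.00378), and its treated libraries numbered 1 were the lowest of each group. The ATRA call was lost without ATRA replicate 2 (0.0567) or 3 (0.0566). The call for both agents held in 13 of 21 other fits, with adjusted p up to 0.101, and was lost without any untreated library or ATRA+palbociclib replicate 2 or 3. The last call held in 22 of 22. The BAZ1B differences without the 3 treated libraries numbered 1 were 0.81 with ATRA (adjusted p = 4.4e-05), 0.68 with both agents (6.48e-05) and, now past 0.05, −0.26 with palbociclib (0.0106, against 0.288). The list's median with both agents was −0.17.

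Of 11 other variant genes outside the clusters, 8 were listed at 0 in all libraries and 2 passed the filter, the centromeric H3 variant CENPA, at 12 to 18 RPKM, and H3F3C, at 13 to 16 RPKM, and neither was called in any comparison. The clustered histone genes had 87 rows, of which 58 were listed at 0 in all libraries and 5 passed the filter, so most of that class could not be compared in these poly(A) libraries. The highest mean levels among them were 17.7 RPKM for the pseudogene HIST1H3PS1 and 12.3 RPKM for HIST1H1C. HIST1H2BK was the 1 gene called at 0.05. It was at 4 to 5 RPKM in untreated cells, 6 with ATRA, 6 to 8 with palbociclib and 7 with both (limma adjusted p = 0.0131, 0.00742 and 0.00103). Its ATRA call was lost without untreated replicate 1 (0.054) and its palbociclib call in a fit of only the groups compared (0.0965). At this level the changes were a few rounding steps. HIST1H2BK passed the filter only through the treated libraries, where it was higher, so its calls are not independent of that filter. Of all tested genes, 20.3%, 4.07% and 30.4% were called at 0.05 in these comparisons.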

How the data were processed

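RNA of HL-60 cells was sequenced in 12 libraries (4 groups of 3). Per the study's methods and processing notes, the authors made poly(A) libraries, mapped reads to hg38 with HISAT2, counted them with HTSeq in default settings and tested counts with voom. The deposited values, handled as a score, are RPKM rounded to whole numbers, without pooling. The depth of each library and the gene lengths are not given in the sources used here, so no counting error is given. Groups and replicate numbers came from the labels.

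Members were matched by symbol, and 1 of the 9 is not reported here. The 7820 genes that reached 5 RPKM in 3 or more libraries entered a limma 3.58.1 fit (R 4.3.3) of log2(RPKM + 0.1), with 1 mean per group, 12 libraries and eBayes with a trend. Benjamini-Hochberg adjustment ran within each of 6 comparisons over all tested genes, with calls under 0.001 and, more loosely, 0.05. The script was tested on simulated data. Sequences were compared with BLAST 2.17.0 and Biopython 1.88, and plots drawn with matplotlib 3.10.9 in Python 3.11.15.

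Same-numbered libraries deviated together across genes in the treated groups (r from 0.438 to 0.908), and less so between untreated and treated libraries (r from 0.0453 to 0.367). What the numbers share is not given in the sources used here. The treated numbers were therefore used as pairs in the same-numbered differences and in the block fits. The main fit, with its calls, intervals and departure from additivity, did not use them. Its p-values between treated groups thus include the spread between replicate numbers. The block over 12 libraries also joined untreated libraries by number, where the likeness was weaker.

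Named genes are the members, the 3 genes most like a called member, and from each list those called in any comparison and the 2 with the highest mean level. Members, lists and tests were chosen with earlier results of these data known. The alternatives were another pseudocount, other filters, median centring, quantile normalization, eBayes without a trend, fits of only the groups compared, a replicate block, and leaving out each library.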

Additional observations from a re-analysis of the deposited data

How the results depend on the processing

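The number of the 7 tested genes called at an adjusted p under 0.001 was 0 in all 6 comparisons and was 0 in every fit that left out 1 library. With the threshold at 0.05 it was 1 for palbociclib and 1 for both agents against untreated cells. For both agents it was 2 after quantile normalization (H2AFX and H2AFZ) and 1 in the fit with a replicate block over 12 libraries (H2AFX). The block changed no other call at 0.001, on 12 libraries or on the 9 treated ones. The cause of these changes was not tested. The log2 differences of H2AFX from untreated cells kept their sign under every alternative run, with palbociclib and with both agents. Over all genes, the number called at 0.001 ranged over the alternatives from 78 to 722 for ATRA (369 as reported), 0 to 115 for palbociclib (39), 71 to 1204 for both agents (629), 0 to 20 for both against ATRA (0), 21 to 481 for both against palbociclib (243) and 0 to 85 for the departure from additivity (0). No scaling moved the median of all genes by more than 0.0764 on the log2 scale. This largest shift came from median centring, with palbociclib and with both agents against untreated cells. Quantile normalization moved the same medians by 0 and −0.00571. Median centring uses library medians of whole-number values, which move in rounding steps, so its shifts may reflect rounding. The fits without the 3 treated libraries numbered 1 and with the block on the treated libraries were added after seeing the data. With 3 libraries a group and values rounded to 1 RPKM, differences below the intervals given, and genes under 1 RPKM, were not detectable.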
